A study of Homo sapiens with 12 samples.

Results

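The genes described here act in the NRF2 pathway, in the synthesis and use of glutathione, and in the removal of peroxides and superoxide. They were chosen by a list of 37 gene symbols, of which 31 were found by Ensembl identifier among the 17508 genes of the count table. The rule names genes and applies no measured value, but the list was written with earlier results of these data known. GPX1, GPX4, GSTM3, TXNRD1 and PRDX1 had no matched row, and SOD2 was left unmatched because its identifier was uncertain, so these were not analysed here. Exon counts of PRDX2, a cytosolic peroxiredoxin, were 0 or 1 in each library, and those of ME1, cytosolic malic enzyme, ran from 0 to 4. Both were left out of the tests, and 29 genes remained. PRDX2 has 4 named pseudogenes and shares 12.1% of its exon length with a gene on the opposite strand. Whether its reads were lost in mapping or counting was not tested. The cells were TYK-nu, an established line from high-grade serous ovarian cancer, with no genetic change described in the labels. Cells were kept for 24 or 72 h with 15 μM cisplatin, a platinum drug that forms adducts with DNA, or with DMSO as control. Each of the 4 groups held 3 libraries of poly(A) RNA, and the counts were given separately for exons and introns. The study used the intron counts to ask whether cisplatin changed RNA splicing.

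NRF2 (NFE2L2) is a transcription factor that KEAP1 binds and hands to a CUL3 ubiquitin ligase for degradation. When cysteines of KEAP1 are modified by electrophiles or oxidants, NRF2 accumulates, pairs with small MAF proteins and binds antioxidant response elements in genes for glutathione synthesis, NADPH supply, and heme and quinone metabolism. Glutathione can bind platinum drugs, and its conjugates leave the cell through ABCC transporters.

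The core of the antioxidant response element, TGACNNNGC on either strand, was searched in RefSeq promoters of GRCh38.p14, from 250 bases before to 50 bases after the transcript start. It was present in 4687 of 35116 promoters (13.3%) and in 7 of 28 promoters (25.0%) of the 23 listed genes that had an entry. The members with a match before the start are shown, 1 window each, so that the motif can be set beside the changes of the gene described below. Capitals mark the core motif, and the sequence is written along the strand of the gene.
GCLM promoter, chr1:93909446-93909474, - strand: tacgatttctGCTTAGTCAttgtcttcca
KEAP1 promoter, chr19:10502784-10502812, - strand: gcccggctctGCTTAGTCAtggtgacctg
GSTP1 promoter, chr11:67583736-67583764, + strand: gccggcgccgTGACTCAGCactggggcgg
ME1 promoter, chr6:83431170-83431198, - strand: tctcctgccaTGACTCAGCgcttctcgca
GSTO1 promoter, chr10:104254721-104254749, + strand: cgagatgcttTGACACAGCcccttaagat
PGD promoter, chr1:10398853-10398881, + strand: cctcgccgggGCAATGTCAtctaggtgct
The core began 34, 31, 66, 137, 161 and 201 bases before the start of the RefSeq transcript in this order. It lay on the opposite strand in GCLM, KEAP1 and PGD. The gene spans of GENCODE can begin farther upstream, and the KEAP1, GSTO1 and PGD windows lie within them. KEAP1 and GSTO1 each held a further match before the start and ME1 one after it, and the match of MGST1 also lay after the start. Over time, the exon counts of GCLM, KEAP1 and PGD fell, those of GSTO1 rose, those of GSTP1 did not pass the test, and ME1 was near 0. A match is a run of letters only, and binding of NRF2 was not measured. Sequence outside this window was not searched, nor were listed genes without an entry. A gene not shown here may therefore hold the motif elsewhere.

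Total exon and intron counts per library ran from 18526830 to 68753262, and the listed genes took between 0.577 and 0.700% of the exon counts. Levels are given as CPM, which are counts scaled to library size, by TMM within the exon or the intron counts, with factors of 0.988 to 1.026 for exons. No library was left out. Of the markers of the labelled line, VIM was at 6774 to 8453, KRT18 at 133 to 181 and KRT8 at 11.01 to 34.5 exon CPM, whereas WT1 was at 1.59 to 4.19 exon CPM and PAX8, KRT7, EPCAM and CDH1 were at or near 0. Of 8 markers of leukocytes, endothelium, liver and erythroid cells, 7 were in the exon table. PTPRC and HBB were at 0, but PECAM1 was at 1350 to 2491 exon CPM. The summed level of these markers was 2387 to 2491 CPM in DMSO and 2413 to 2474 CPM in cisplatin at 24 h, and 1351 to 1438 and 1416 to 1525 CPM at 72 h. Its part in the changes over time was not tested. Since the samples were bulk cultures, fewer cells of a kind and less RNA per cell cannot be told apart. The labels name triplicates without saying how they were grown, so p-values measure the spread between these libraries only.

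Over time, the module moved in both directions. From 24 to 72 h in DMSO, the exon counts of 25 of 29 genes differed by edgeR's quasi-likelihood test at a Benjamini-Hochberg adjusted p under 0.05, with 10 higher and 15 lower. Over all 10444 genes tested, 32.6% were called higher and 32.5% lower. In cisplatin, 7 were higher and 12 lower, against 32% and 31.5% over all genes. The median log2 change of the 29 genes was -0.16 in DMSO and -0.015 in cisplatin, beside 0.015 and 0.017 for all genes. With no filter on low counts, which added PRDX2 and ME1 to the genes, the DMSO median was -0.051. The cisplatin median had no stable sign: it was 0.0099 with total counts as library size, -0.066 with only the 6 libraries compared, 0.0025 without cisplatin replicate 3 at 24 h and 0.0038 without cisplatin replicate 1 at 72 h, and it reached -0.044 without cisplatin replicate 2 at 72 h. HMOX1, FTL, FTH1, SLC7A11, GSS, OSGIN1 and GSTO1 were called higher under both treatments. Those lower under both were GCLM, GSR, MGST1, the peroxiredoxins PRDX3, PRDX4 and PRDX6, SOD1, CAT, TALDO1, PGD, NQO1 and KEAP1. The time comparisons use separate libraries, but each shares them with a cisplatin comparison.

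**Figure D1:**
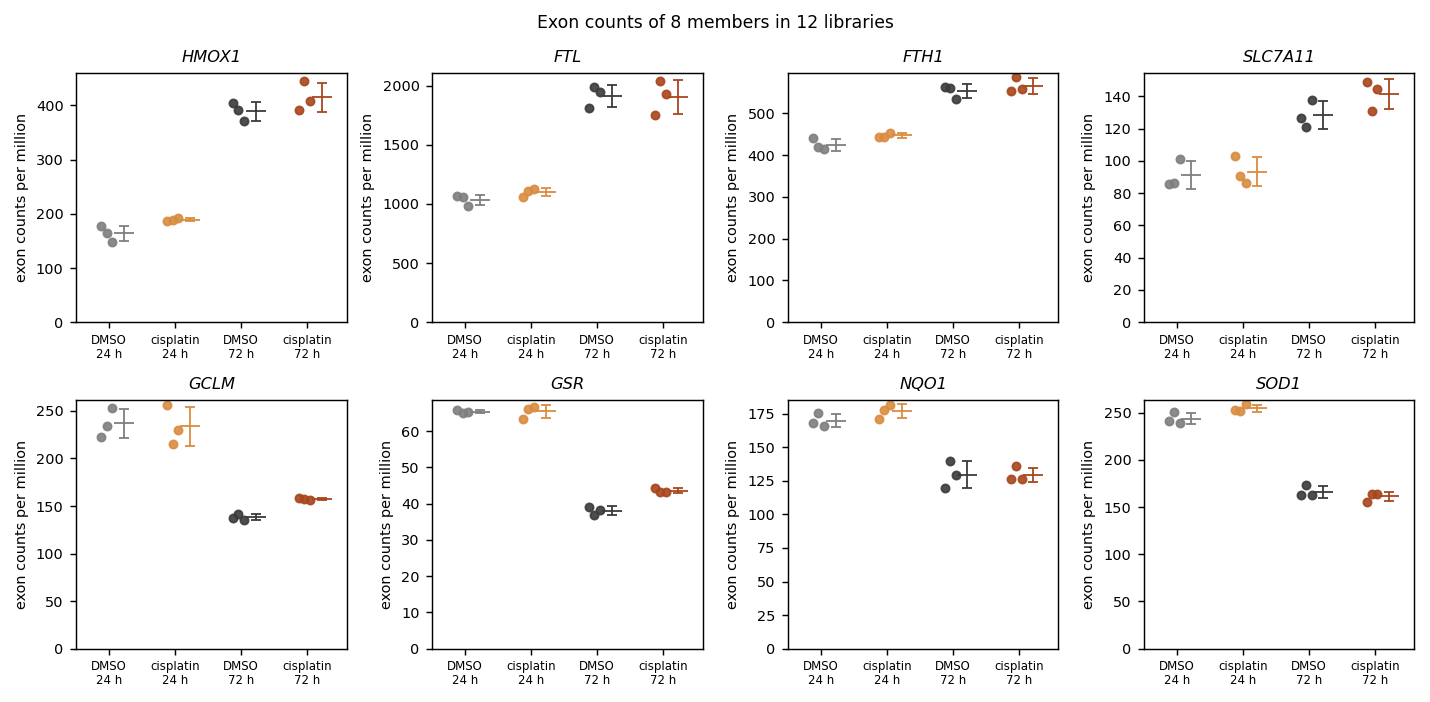
Exon CPM of 8 genes in each of the 12 libraries, on axes that start at 0. Points are libraries, and the bar beside them is the mean with its SD (n = 3). For HMOX1, FTL, FTH1 and SLC7A11 every 72 h library lies above every 24 h library, and for GCLM, GSR, NQO1 and SOD1 every 72 h library lies below.

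Of the regulators, NFE2L2 (ENSG00000116044, chromosome 2 from 177218667 to 177392756 on the - strand) had small exon changes. Its exon CPM were 35.0, 30.8 and 33.8 in DMSO and 34.5, 31.6 and 34.8 in cisplatin at 24 h, and 39.9, 37.7 and 36.0 in DMSO and 39.7, 35.7 and 34.0 in cisplatin at 72 h. The 72 h libraries lay above the 24 h libraries in DMSO and overlapped with them in cisplatin. NFE2L2 exon counts rose by 0.19 (SE 0.076) on the log2 scale (edgeR, adjusted p = 0.0334) in DMSO, and the change in cisplatin was 0.12 (SE 0.075; edgeR, adjusted p = 0.159). The DMSO call rested on single libraries: without DMSO replicate 2 at 24 h the log2 change was 0.13 (edgeR, adjusted p = 0.185), and without DMSO replicates 1 or 2 at 72 h it was 0.15 and 0.19 (adjusted p = 0.133 and 0.0619). On GRCh38, 24.8% of its exon length is shared with genes on the opposite strand and 13.6% with genes on the same strand, so these counts are uncertain.

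KEAP1 (ENSG00000079999, chromosome 19 from 10486125 to 10503558 on the - strand), the adaptor that holds NRF2 in check, went the other way. Its exon CPM were 110.1, 101 and 93.6 in DMSO and 94.1, 106 and 98.8 in cisplatin at 24 h, and 91.8, 83.9 and 89.9 in DMSO and 87.5, 89.3 and 86.3 in cisplatin at 72 h, with all 72 h libraries below the 24 h libraries of the same treatment. KEAP1 exon counts fell by 0.20 (SE 0.063) in DMSO and by 0.19 (SE 0.063) in cisplatin on the log2 scale (edgeR, adjusted p = 0.00865 and 0.0125). Without DMSO replicate 1 at 24 h the fall was -0.14 (adjusted p = 0.0754), and without cisplatin replicate 2 at 24 h it was -0.14 (adjusted p = 0.0852), both by edgeR. Without DMSO replicate 2 at 72 h it was -0.16 (edgeR, adjusted p = 0.0505).

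In glutathione synthesis, the cystine importer rose while the modifier subunit of the first enzyme and the reductase fell. SLC7A11 (ENSG00000151012, chromosome 4 from 138164097 to 138242349 on the - strand), the light chain of the cystine/glutamate antiporter, had exon CPM of 85.7, 86.5 and 101 in DMSO and 103, 90.5 and 86.2 in cisplatin at 24 h, and 127, 121 and 138 in DMSO and 149, 131 and 144 in cisplatin at 72 h. The times did not overlap. SLC7A11 exon counts rose by 0.50 (SE 0.074) in DMSO and by 0.60 (SE 0.074) in cisplatin on the log2 scale (edgeR, adjusted p = 2.87e-06 and 1.88e-07). Of its exon length, 9.0% is shared with an antisense gene. GCLC, the catalytic subunit of glutamate-cysteine ligase, stayed between 16.2 and 20.2 exon CPM. Its exon CPM were 17.0, 17.0 and 20.2 in DMSO and 16.2, 18.1 and 17.3 in cisplatin at 24 h, and 17.3, 19.3 and 16.7 in DMSO and 18.1, 17.7 and 18.6 in cisplatin at 72 h, and the groups overlapped. The log2 changes of GCLC were -0.018 (SE 0.090; edgeR, adjusted p = 0.871) in DMSO and 0.073 (SE 0.088; edgeR, adjusted p = 0.483) in cisplatin, with 95% intervals of -0.20 to 0.17 and -0.11 to 0.25.

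GCLM (ENSG00000023909, chromosome 1 from 93885199 to 93909456 on the - strand), the modifier subunit of the same ligase, fell. Its exon CPM were 223, 235 and 253 in DMSO and 256, 215 and 229.8 in cisplatin at 24 h, and 137, 142 and 136 in DMSO and 158, 158 and 156 in cisplatin at 72 h. Each 72 h library was lower than each 24 h library. GCLM exon counts fell by 0.78 (SE 0.060) in DMSO and by 0.57 (SE 0.059) in cisplatin on the log2 scale (edgeR, adjusted p = 5.78e-11 and 1.14e-08). GSR, which reduces oxidized glutathione with NADPH, had exon CPM of 66.0, 65.0 and 65.3 in DMSO and 63.5, 66.1 and 66.8 in cisplatin at 24 h, and 39.2, 36.7 and 38.1 in DMSO and 44.3, 43.1 and 43.2 in cisplatin at 72 h, and fell by 0.78 (SE 0.058) in DMSO and by 0.59 (SE 0.057) in cisplatin on the log2 scale (edgeR, adjusted p = 3.29e-11 and 3.79e-09). GSS, glutathione synthetase, rose less. GSS exon CPM were 131, 136 and 132 in DMSO and 134, 137 and 137 in cisplatin at 24 h, and 151, 152 and 156 in DMSO and 149.7, 158 and 152 in cisplatin at 72 h, and its exon counts rose by 0.20 (SE 0.049) in DMSO and by 0.17 (SE 0.049) in cisplatin on the log2 scale (edgeR, adjusted p = 0.000983 and 0.00378).

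Of the glutathione transferases and the exporter, GSTP1, the transferase of the pi class, was not called over time under either treatment. GSTP1 exon CPM were 527, 506 and 446 in DMSO and 492, 526 and 519 in cisplatin at 24 h, and 502, 522 and 498 in DMSO and 490.1, 527 and 515 in cisplatin at 72 h, and the groups overlapped. The log2 change of GSTP1 was 0.041 in DMSO (95% interval -0.073 to 0.15; edgeR, adjusted p = 0.533) and -0.0035 in cisplatin (95% interval -0.12 to 0.11; adjusted p = 0.96). MGST1, a microsomal transferase, had exon CPM of 14.4, 15.7 and 15.9 in DMSO and 15.5, 13.8 and 17.0 in cisplatin at 24 h, and 10.3, 8.95 and 8.44 in DMSO and 9.47, 9.64 and 9.96 in cisplatin at 72 h, with all 72 h libraries below the 24 h libraries. MGST1 exon counts fell by 0.74 (SE 0.10) in DMSO and by 0.66 (SE 0.10) in cisplatin on the log2 scale (edgeR, adjusted p = 1.11e-06 and 3.7e-06). GSTO1, an omega class transferase, had exon CPM of 135, 141 and 139 in DMSO and 153, 137 and 151 in cisplatin at 24 h, and 178, 207 and 175 in DMSO and 151, 169 and 173 in cisplatin at 72 h. GSTO1 exon counts rose by 0.43 (SE 0.065) in DMSO and by 0.16 (SE 0.065) in cisplatin on the log2 scale (edgeR, adjusted p = 3.7e-06 and 0.0303). Its cisplatin libraries overlapped between the times, and the call in cisplatin was lost without cisplatin replicate 2 at 24 h (0.12, edgeR, adjusted p = 0.158), without replicate 2 at 72 h (0.14, adjusted p = 0.0940) or without replicate 3 at 72 h (0.13, adjusted p = 0.143).

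GSTK1 and MGST3, a mitochondrial and a microsomal transferase, were called in DMSO only. Their cisplatin libraries overlapped between the times. The difference between the time effects in cisplatin and in DMSO was not called for either gene. GSTK1 exon CPM were 28.6, 30.7 and 28.4 in DMSO and 29.6, 30.8 and 31.7 in cisplatin at 24 h, and 35.7, 33.9 and 31.4 in DMSO and 29.7, 32.3 and 32.7 in cisplatin at 72 h, and in DMSO its exon counts rose by 0.20 (SE 0.072) on the log2 scale (edgeR, adjusted p = 0.0196). That call was lost without any of DMSO replicates 1 and 3 at 24 h and replicate 1 at 72 h, where the change was 0.18, 0.18 and 0.15 (edgeR, adjusted p = 0.0607, 0.0576 and 0.101). MGST3 exon CPM were 67.8, 70.9 and 66.1 in DMSO and 69.8, 67.2 and 78.4 in cisplatin at 24 h, and 80.3, 83.0 and 77.0 in DMSO and 69.5, 74.8 and 79.2 in cisplatin at 72 h, and in DMSO its exon counts rose by 0.23 (SE 0.066) on the log2 scale (edgeR, adjusted p = 0.00401). ABCC1 (MRP1), which pumps glutathione conjugates out of the cell, had exon CPM of 225, 202 and 213 in DMSO and 199, 215 and 197 in cisplatin at 24 h, and 184, 173 and 199 in DMSO and 212, 203 and 208 in cisplatin at 72 h. In DMSO the 72 h libraries lay below the 24 h libraries, and ABCC1 exon counts fell by 0.20 (SE 0.057) on the log2 scale (edgeR, adjusted p = 0.00397). In cisplatin the times overlapped, with a change of 0.028 (SE 0.057; edgeR, adjusted p = 0.685). The difference between these 2 time effects equals the difference of the cisplatin effect between the times, given below.

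None of the 6 tested genes of the thioredoxin and peroxiredoxin group was called higher: 4 were lower in DMSO and 3 in cisplatin, where 32.5% and 31.5% of all genes were lower. PRDX3, the mitochondrial peroxiredoxin, had exon CPM of 309.7, 327 and 304 in DMSO and 308, 294 and 321 in cisplatin at 24 h, and 211, 223 and 207 in DMSO and 199, 207 and 209 in cisplatin at 72 h, and fell by 0.55 (SE 0.051) in DMSO and by 0.59 (SE 0.051) in cisplatin on the log2 scale (edgeR, adjusted p = 1.52e-09 and 6.76e-10). PRDX4, the peroxiredoxin of the endoplasmic reticulum, had exon CPM of 116, 122 and 119 in DMSO and 134, 115 and 125 in cisplatin at 24 h, and 90.7, 98.5 and 80.9 in DMSO and 80.1, 84.5 and 82.0 in cisplatin at 72 h. Its exon counts fell by 0.40 (SE 0.067) in DMSO and by 0.60 (SE 0.067) in cisplatin on the log2 scale (edgeR, adjusted p = 1.2e-05 and 3.73e-08). The times did not overlap for PRDX3, PRDX4 or PRDX6. PRDX6, the peroxiredoxin with a single catalytic cysteine, had exon CPM of 449.9, 467 and 476 in DMSO and 484, 467 and 482 in cisplatin at 24 h, and 385, 418 and 408 in DMSO and 397, 412 and 412 in cisplatin at 72 h, and fell by 0.20 (SE 0.047) in DMSO and by 0.23 (SE 0.047) in cisplatin on the log2 scale (edgeR, adjusted p = 0.000662 and 0.000155).

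TXN, thioredoxin itself, was called in DMSO only, with overlapping times. TXN exon CPM were 13.3, 11.3 and 9.97 in DMSO and 10.7, 10.8 and 11.3 in cisplatin at 24 h, and 7.49, 10.5 and 9.47 in DMSO and 9.02, 10.9 and 9.52 in cisplatin at 72 h. TXN exon counts fell by 0.34 (SE 0.13) on the log2 scale (edgeR, adjusted p = 0.0216) in DMSO, and changed by -0.15 (SE 0.12; edgeR, adjusted p = 0.298) in cisplatin. Without DMSO replicate 1 at 24 h or replicate 1 at 72 h, the DMSO change was -0.22 in both fits (edgeR, adjusted p = 0.154 and 0.139). SRXN1, sulfiredoxin, which repairs overoxidized peroxiredoxins, had exon CPM of 278, 274 and 283 in DMSO and 279.9, 271 and 290.2 in cisplatin at 24 h, and 257, 280.3 and 269.9 in DMSO and 259, 288 and 285 in cisplatin at 72 h. Its changes were -0.048 (SE 0.052; edgeR, adjusted p = 0.425) in DMSO and -0.015 (SE 0.052; edgeR, adjusted p = 0.807) in cisplatin. SRXN1 shares 90.7% of its exon length with another gene annotated on the same strand. PRDX5 had 3 to 46 exon counts per library but 59 to 258 intron counts, and its exon changes of 1.02 (SE 0.47) in DMSO and 0.86 (SE 0.47) in cisplatin did not pass the test. TXN, PRDX3 and SOD1 have 7, 4 and 3 named pseudogenes, between which reads could have been split.

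SOD1 and CAT, which act on superoxide and hydrogen peroxide, were both called lower. SOD1, cytosolic superoxide dismutase, had exon CPM of 241, 251 and 239 in DMSO and 253, 252 and 259 in cisplatin at 24 h, and 163, 174 and 163 in DMSO and 155, 164 and 164 in cisplatin at 72 h. SOD1 exon counts fell by 0.55 (SE 0.049) in DMSO and by 0.66 (SE 0.049) in cisplatin on the log2 scale (edgeR, adjusted p = 7.4e-10 and 3.63e-11). CAT, catalase of the peroxisome, had exon CPM of 110.2, 115 and 112 in DMSO and 122, 111 and 116 in cisplatin at 24 h, and 88.1, 99.8 and 91.4 in DMSO and 92.4, 87.2 and 87.6 in cisplatin at 72 h. Its exon counts fell by 0.28 (SE 0.058) in DMSO and by 0.39 (SE 0.058) in cisplatin on the log2 scale (edgeR, adjusted p = 0.000225 and 3.05e-06). In either gene, the 72 h libraries lay below the 24 h libraries under both treatments.

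Of NADPH supply, TALDO1, PGD and TKT were lower in DMSO, and TALDO1 and PGD also in cisplatin, against the same shares of 32.5% and 31.5% over all genes. TALDO1, transaldolase of the pentose phosphate pathway, had exon CPM of 287, 282 and 280.4 in DMSO and 294, 294 and 302 in cisplatin at 24 h, and 227, 224 and 215 in DMSO and 218, 231 and 224 in cisplatin at 72 h. TALDO1 exon counts fell by 0.35 (SE 0.047) in DMSO and by 0.40 (SE 0.046) in cisplatin on the log2 scale (edgeR, adjusted p = 5.17e-07 and 6.45e-08). PGD, 6-phosphogluconate dehydrogenase, had exon CPM of 351, 343 and 329.8 in DMSO and 344, 342 and 347 in cisplatin at 24 h, and 312, 292 and 302 in DMSO and 302, 308 and 301 in cisplatin at 72 h, and fell by 0.18 (SE 0.046) in DMSO and by 0.18 (SE 0.046) in cisplatin on the log2 scale (edgeR, adjusted p = 0.0017 and 0.00137). TKT, transketolase, had the smallest change of these. TKT exon CPM were 326, 304 and 286 in DMSO and 295, 330.2 and 309 in cisplatin at 24 h, and 275, 264 and 279 in DMSO and 281, 293 and 287 in cisplatin at 72 h. TKT exon counts fell by 0.16 (SE 0.054) on the log2 scale (edgeR, adjusted p = 0.0107) in DMSO, which did not pass without DMSO replicate 1 at 24 h (-0.11, edgeR, adjusted p = 0.0807), and the change in cisplatin was -0.12 (SE 0.054; edgeR, adjusted p = 0.0563).

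HMOX1 and FTL had the largest called rises of the module under both treatments. HMOX1 (ENSG00000100292, chromosome 22 from 35380361 to 35394214 on the + strand), heme oxygenase 1, which opens heme and frees its iron, had exon CPM of 178, 164 and 149 in DMSO and 187, 188 and 192 in cisplatin at 24 h, and 404, 392 and 370.3 in DMSO and 391, 444 and 408 in cisplatin at 72 h. The lowest library at 72 h was above the highest at 24 h. HMOX1 exon counts rose by 1.25 (SE 0.061) in DMSO and by 1.13 (SE 0.060) in cisplatin on the log2 scale (edgeR, adjusted p = 1.64e-14 and 9.54e-14). FTL (ENSG00000087086, chromosome 19 from 48965309 to 48966879 on the + strand), the ferritin light chain, had exon CPM of 1065, 1055 and 985 in DMSO and 1060, 1113 and 1122 in cisplatin at 24 h, and 1810, 1987 and 1944 in DMSO and 1750, 2040 and 1926 in cisplatin at 72 h. Its exon counts rose by 0.89 (SE 0.055) in DMSO and by 0.79 (SE 0.055) in cisplatin on the log2 scale (edgeR, adjusted p = 1.17e-12 and 9.45e-12). FTH1 (ENSG00000167996, chromosome 11 from 61959718 to 61967634 on the - strand), the ferritin heavy chain with the ferroxidase site, had exon CPM of 442, 419 and 415 in DMSO and 444, 444 and 453 in cisplatin at 24 h, and 563, 562 and 534 in DMSO and 553, 587 and 558 in cisplatin at 72 h, and rose by 0.38 (SE 0.047) in DMSO and by 0.34 (SE 0.047) in cisplatin on the log2 scale (edgeR, adjusted p = 1.73e-07 and 9.32e-07). The times were apart for all 3 genes. FTL and FTH1 have 16 and 25 named pseudogenes, and 63.2% of FTH1 exon length is shared with BEST1 on the opposite strand, so their counts carry that uncertainty.

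NQO1, the quinone reductase often used as a readout of NRF2, fell in the same libraries. NQO1 exon CPM were 168, 175 and 166 in DMSO and 171, 178 and 182 in cisplatin at 24 h, and 119.7, 139.9 and 129 in DMSO and 126, 136 and 127 in cisplatin at 72 h, with no overlap between the times. NQO1 exon counts fell by 0.39 (SE 0.057) in DMSO and by 0.45 (SE 0.057) in cisplatin on the log2 scale (edgeR, adjusted p = 2.16e-06 and 2.7e-07). Of NQO1 exon length, 19.4% is shared with genes on the opposite strand. OSGIN1, an oxidative stress induced growth inhibitor, had exon CPM of 31.3, 27.0 and 22.8 in DMSO and 30.2, 32.9 and 27.7 in cisplatin at 24 h, and 31.9, 32.0 and 32.4 in DMSO and 35.1, 36.8 and 36.4 in cisplatin at 72 h. OSGIN1 exon counts rose by 0.24 (SE 0.088) in DMSO and by 0.25 (SE 0.085) in cisplatin on the log2 scale (edgeR, adjusted p = 0.0197 and 0.0143). The DMSO rise of OSGIN1 was 0.14 without DMSO replicate 3 at 24 h and 0.24 without replicate 2 (edgeR, adjusted p = 0.151 and 0.0522), and the cisplatin rise was 0.19 without cisplatin replicate 3 at 24 h (adjusted p = 0.0859).

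**Figure D2:**
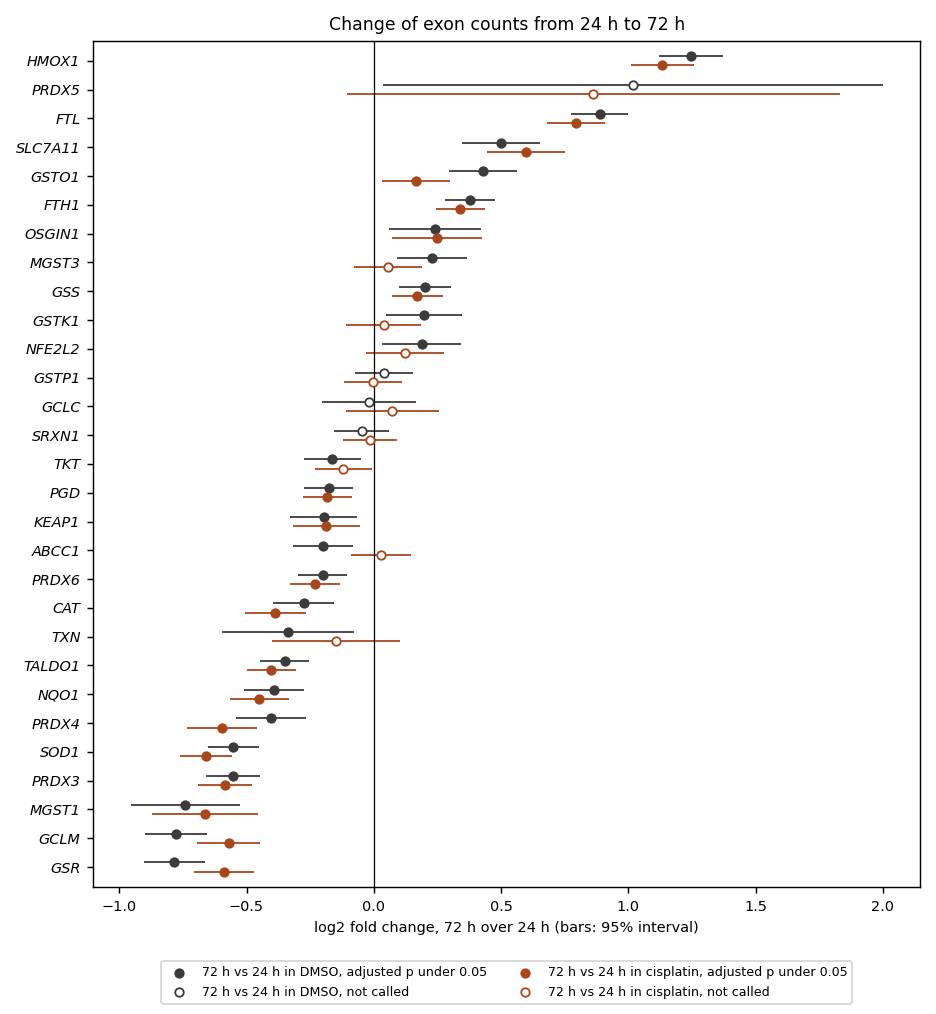
Log2 fold change of exon counts at 72 h over 24 h for the 29 tested genes, in DMSO and in cisplatin, with 95% intervals from the edgeR fit; filled points had an adjusted p under 0.05. HMOX1 has the largest called rise (1.25 in DMSO and 1.13 in cisplatin), and GSR and GCLM the largest falls in DMSO (both -0.78).

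A further list of 67 genes of the same pathway, of which 63 were in the table and 48 tested, moved in both directions over time. In DMSO, 18 were higher and 16 lower, and in cisplatin 17 were higher and 21 lower. Over all genes tested the shares were 32.6% and 32.5% in DMSO and 32% and 31.5% in cisplatin. SESN2, a stress-induced sestrin, rose by 2.41 (SE 0.053) in DMSO and 2.40 (SE 0.054) in cisplatin on the log2 scale (edgeR, adjusted p = 2.44e-20 and 3.13e-20). Among the regulators, SQSTM1 (p62), which can draw KEAP1 into autophagy, rose by 1.70 (SE 0.052) in DMSO and by 1.55 (SE 0.052) in cisplatin on the log2 scale (edgeR, adjusted p = 5.44e-18 and 3.29e-17). CUL3 and RBX1, the scaffold and the RING subunit of the ligase that KEAP1 serves, both fell. CUL3 fell by 0.69 (SE 0.065) in DMSO and by 0.67 (SE 0.065) in cisplatin on the log2 scale (edgeR, adjusted p = 2.15e-09 and 3.91e-09), and RBX1 fell by 0.60 (SE 0.091) in DMSO and by 0.82 (SE 0.090) in cisplatin on the log2 scale (edgeR, adjusted p = 3.32e-06 and 3.23e-08). MAFK, a small MAF partner of NRF2, rose by 0.59 (SE 0.061) in DMSO and by 0.53 (SE 0.061) in cisplatin on the log2 scale (edgeR, adjusted p = 1e-08 and 6.39e-08).

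TFRC, the transferrin receptor that brings iron into the cell, moved opposite to the ferritins. It fell by 2.12 (SE 0.068) in DMSO and by 1.92 (SE 0.067) in cisplatin on the log2 scale (edgeR, adjusted p = 1.13e-17 and 7.08e-17). BLVRB, biliverdin reductase B, rose by 0.94 (SE 0.080) in DMSO and by 0.87 (SE 0.079) in cisplatin on the log2 scale (edgeR, adjusted p = 3.21e-10 and 1.44e-09). OPLAH, 5-oxoprolinase of glutathione turnover, changed by 1.07 (SE 0.11) in DMSO and 1.01 (SE 0.11) in cisplatin on the log2 scale. Among the transferases and transporters, GSTO2 changed by 1.06 (SE 0.12) in DMSO and 0.74 (SE 0.12) in cisplatin, and ABCC4 by -0.50 (SE 0.068) in DMSO and -0.40 (SE 0.067) in cisplatin. PGLS, the lactonase between glucose-6-phosphate dehydrogenase and PGD, changed by 0.72 (SE 0.077) in DMSO and 0.68 (SE 0.076) in cisplatin, while GPX8, a glutathione peroxidase of the endoplasmic reticulum, changed by -0.48 (SE 0.060) in DMSO and -0.65 (SE 0.060) in cisplatin. Each of these passed the edgeR test. With cisplatin against DMSO, 0 of the 48 were called at either time by edgeR, with 1 and 8 of the 48 at an unadjusted p under 0.05, where 260 and 1311 of all 10444 genes were.

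Cisplatin against DMSO at the same time gave no called exon change in the module. At 24 h, edgeR called 0 of the 29 genes, against 0% of 10444 genes, and 1 of the 29 had an unadjusted p under 0.05 (260 of all genes). At 72 h it called 0 of 29, against 0.0287% of all genes, and 4 had an unadjusted p under 0.05 (1311 of all genes). DESeq2 also called 0 of the 29 at both times, and its 72 h count over all genes is given in the last paragraph. The median change was 0.037 at 24 h and 0.011 at 72 h, beside -0.00047 and 0.00052 for all genes. The 72 h median was -0.0047 without cisplatin replicate 2 at 72 h and 0.032 without DMSO replicate 2 at 72 h, so its sign was not stable either, and the 24 h median ran from 0.022 to 0.058 without cisplatin replicates 1 or 2 at 24 h. Of the 29 genes, 21 were above 0 at 24 h and 18 at 72 h. For 28 of the 29 the whole 95% interval lay within 0.5 of no change on the log2 scale at both times. Without PRDX5, whose counts were low, the bounds ran from -0.35 to 0.35 at 24 h and from -0.31 to 0.35 at 72 h.

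The 3 genes with the smallest p at 24 h were HMOX1, OSGIN1 and FTL. HMOX1 had exon CPM of 178, 164 and 149 in DMSO and 187, 188 and 192 in cisplatin at 24 h, so that all cisplatin libraries lay above all DMSO libraries. Its log2 change was 0.21 (SE 0.061; edgeR, adjusted p = 1), and 0.093 (SE 0.059; edgeR, adjusted p = 0.538) at 72 h, where the libraries overlapped. OSGIN1 changed by 0.16 (SE 0.089; edgeR, adjusted p = 1) and FTL by 0.085 (SE 0.055; edgeR, adjusted p = 1), and the libraries of the 2 treatments overlapped for both. In all, 4 genes (FTH1, HMOX1, SOD1 and TALDO1) had every cisplatin library above every DMSO library at 24 h and 0 had every one below, where 6.42% of all genes had groups that did not overlap in either direction.

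At 72 h the smallest p belonged to GSR, GCLM and ABCC1, which were higher with cisplatin. GSR had exon CPM of 39.2, 36.7 and 38.1 in DMSO and 44.3, 43.1 and 43.2 in cisplatin, and a log2 change of 0.20 (SE 0.058; edgeR, adjusted p = 0.183). GCLM had exon CPM of 137, 142 and 136 in DMSO and 158, 158 and 156 in cisplatin, and a change of 0.19 (SE 0.059; edgeR, adjusted p = 0.231). For both, the cisplatin libraries stood above the DMSO libraries by more than the spread within either group, while the falls over time were larger than this gap. ABCC1 changed by 0.16 (SE 0.057; edgeR, adjusted p = 0.26), and GSTO1, the only gene with every cisplatin library below, by -0.18 (SE 0.064; edgeR, adjusted p = 0.261). With OSGIN1 and TKT, 5 genes had all cisplatin libraries above all DMSO libraries and 1 had them below, against 18.1% of all genes with groups apart in either direction.

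**Figure D3:**
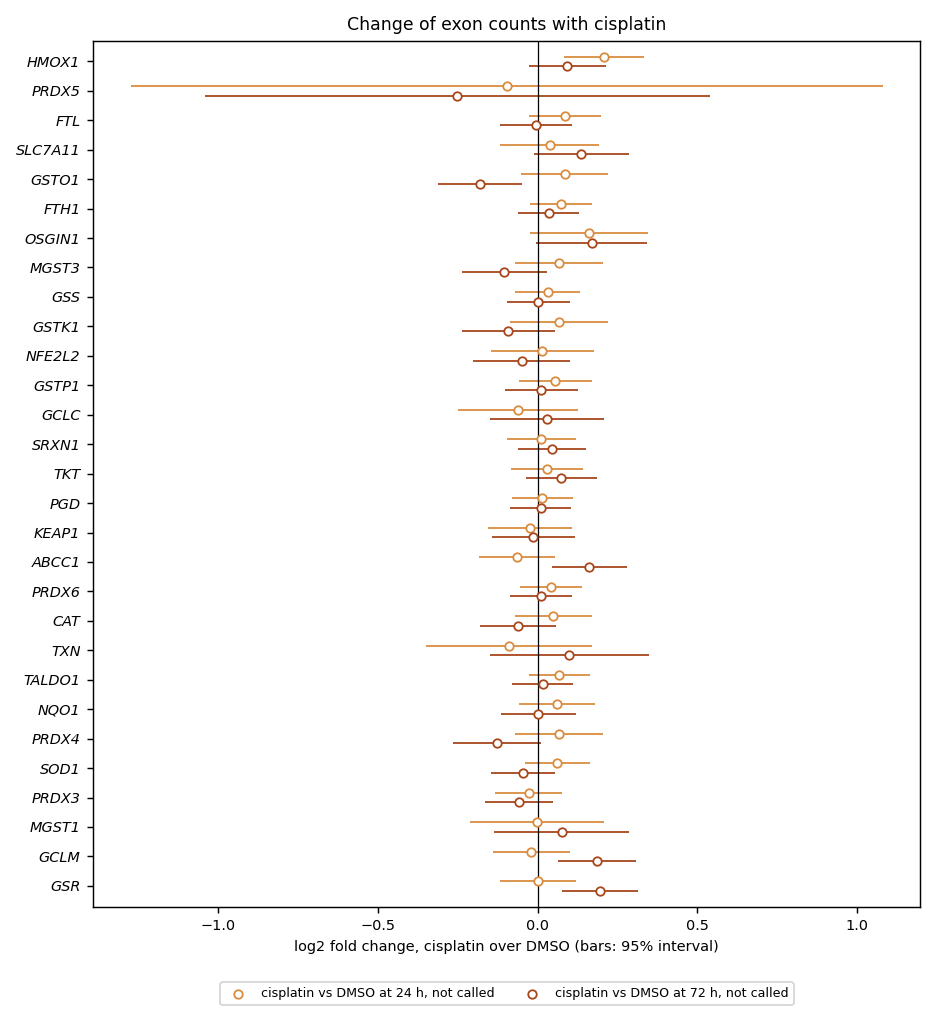
Log2 fold change of exon counts with cisplatin over DMSO at 24 and 72 h for the 29 tested genes, in the order of the time plot, with 95% intervals from the edgeR fit. Open points mark an adjusted p of 0.05 or more, which holds for all 29 at both times, and the wide interval of PRDX5 comes with 3 to 46 exon counts per library.

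The difference of the cisplatin effect between 72 and 24 h passed the threshold for none of the 29 genes, for exons (0 called by edgeR, 0% of all genes) or for introns (0 called, 0.0416% of all genes). At an unadjusted p under 0.05, there were 4 genes for exons (985 of all genes) and 2 for introns (549 of all genes). For exons, the differences were 0.23 (SE 0.081) for ABCC1, 0.21 (SE 0.084) for GCLM, 0.19 (SE 0.081) for GSR and -0.26 (SE 0.092) for GSTO1, with adjusted p of 0.454, 0.498, 0.501 and 0.454 in this order (edgeR). Equally, these 4 values are the difference between the time effects in cisplatin and in DMSO.

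Intron counts, which come from unspliced RNA or from other transcripts within the gene, ran from 3 to 1798 per library for the 29 genes. They were fewer than the exon counts for most genes, but not for PRDX5, and GSTK1 had about as many of each (exon/intron ratio 0.84 to 1.19). From 24 to 72 h in DMSO, 11 of 29 genes were called, 4 higher and 7 lower, against 17.2% and 16.2% of 9618 genes. In cisplatin, 10 were called, 4 higher and 6 lower, against 16.4% and 15.4%. FTH1, FTL, HMOX1 and NFE2L2 were the genes called higher under both treatments. All 11 intron calls in DMSO had an exon call in the same direction, and so had 8 of the 10 in cisplatin. The exceptions were NFE2L2 and TKT, whose exon changes were not called. Exon calls were common, with 25 of 29 genes in DMSO and 19 in cisplatin. Of these, 22 and 17 had an intron change of the same sign. The signs differed for GSS, MGST3 and NQO1 in DMSO and for CAT and GSS in cisplatin. Such agreement was not computed over all genes. Intron calls depended on scaling: with total counts in place of TMM, the median change of all genes moved from -0.011 to -0.15 in DMSO and from -0.016 to -0.12 in cisplatin. The share of higher calls among all called genes then went from 51.6% to 33.7% in DMSO and from 51.6% to 36.2% in cisplatin. The module then had 4 higher and 9 lower in DMSO and 4 higher and 11 lower in cisplatin. Of all genes tested, 12.3% were then higher and 24.2% lower in DMSO, and 12.2% and 21.4% in cisplatin.

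FTH1 had the largest called intron rise in DMSO, and FTL in cisplatin. Its intron CPM were 19.0, 18.8 and 11.3 in DMSO and 14.8, 19.5 and 23.1 in cisplatin at 24 h, and 62.7, 39.6 and 40.7 in DMSO and 36.4, 36.0 and 42.9 in cisplatin at 72 h, from 16 to 168 counts per library. FTH1 intron counts rose by 1.49 (SE 0.23) in DMSO and by 1.01 (SE 0.22) in cisplatin on the log2 scale (edgeR, adjusted p = 6.05e-07 and 0.000291). For FTL the intron CPM were 34.3, 34.5 and 33.2 in DMSO and 38.8, 22.7 and 38.7 in cisplatin at 24 h, and 81.4, 84.7 and 62.0 in DMSO and 68.1, 72.5 and 67.5 in cisplatin at 72 h, and the intron counts rose by 1.14 (SE 0.18) in DMSO and by 1.11 (SE 0.18) in cisplatin on the log2 scale (edgeR, adjusted p = 7.71e-07 and 1.06e-06). In both ferritin genes, the 72 h libraries lay above the 24 h libraries.

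HMOX1 intron CPM were 26.9, 20.8 and 17.0 in DMSO and 25.7, 26.7 and 37.1 in cisplatin at 24 h, and 36.3, 45.7 and 46.9 in DMSO and 51.1, 48.5 and 67.9 in cisplatin at 72 h. HMOX1 intron counts rose by 0.98 (SE 0.21) in DMSO and by 0.92 (SE 0.19) in cisplatin on the log2 scale (edgeR, adjusted p = 0.000192 and 0.000136), close to its exon change. NFE2L2 intron CPM were 30.6, 36.1 and 33.2 in DMSO and 35.9, 32.1 and 23.1 in cisplatin at 24 h, and 58.6, 71.5 and 55.1 in DMSO and 48.1, 49.1 and 50.1 in cisplatin at 72 h. NFE2L2 intron counts rose by 0.88 (SE 0.18) in DMSO and by 0.66 (SE 0.18) in cisplatin on the log2 scale (edgeR, adjusted p = 9.22e-05 and 0.00285), more than its exon counts did. SLC7A11, with 15 to 98 intron counts, had intron changes of 0.54 (SE 0.30; edgeR, adjusted p = 0.167) in DMSO and 0.57 (SE 0.27; edgeR, adjusted p = 0.107) in cisplatin, close in size to its exon changes but not called.

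Of the genes that fell, GCLM had intron CPM of 45.9, 48.2 and 55.1 in DMSO and 52.5, 45.1 and 43.7 in cisplatin at 24 h, and 23.4, 20.4 and 32.9 in DMSO and 32.8, 29.2 and 33.5 in cisplatin at 72 h. GCLM intron counts fell by 0.92 (SE 0.20) in DMSO and by 0.57 (SE 0.18) in cisplatin on the log2 scale (edgeR, adjusted p = 0.000172 and 0.0121), which in cisplatin was not called without cisplatin replicate 1 at 24 h (-0.49, edgeR, adjusted p = 0.0665) or replicate 2 at 72 h (-0.51, adjusted p = 0.0702). PRDX6 intron CPM were 247, 286 and 289.6 in DMSO and 270.4, 260.2 and 301 in cisplatin at 24 h, and 185, 176 and 201 in DMSO and 191, 188 and 208 in cisplatin at 72 h, and intron counts fell by 0.54 (SE 0.10) in DMSO and by 0.50 (SE 0.10) in cisplatin on the log2 scale (edgeR, adjusted p = 2.87e-05 and 8.27e-05). SOD1 was called in cisplatin only. SOD1 intron counts fell by 0.85 (SE 0.16) on the log2 scale (edgeR, adjusted p = 2.47e-05) in cisplatin, while the change in DMSO was -0.24 (SE 0.17; edgeR, adjusted p = 0.303). The difference between these effects was -0.62 (SE 0.23; edgeR, adjusted p = 0.762).

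The remaining intron calls were MGST1 (-0.78, SE 0.21), GSR (-0.90, SE 0.30), TALDO1 (-0.54, SE 0.16), PRDX3 (-0.53, SE 0.21) and PGD (-0.52, SE 0.15) in DMSO, and GSR (-0.73, SE 0.26), TALDO1 (-0.43, SE 0.16) and TKT (-0.36, SE 0.13) in cisplatin, all lower. Several of them were not called when 1 library was left out. PRDX3 was not called without DMSO replicate 1 at 72 h (-0.33, edgeR, adjusted p = 0.261), replicate 2 at 72 h (-0.54), or replicates 2 or 3 at 24 h (-0.45 and -0.52), nor by DESeq2. GSR was lost in DMSO without replicate 2 at 24 h (-0.72, edgeR, adjusted p = 0.102) or replicates 1 or 3 at 72 h, and in cisplatin without replicate 3 at 24 h (-0.63, adjusted p = 0.0983) or replicates 1 or 3 at 72 h. TALDO1 was lost in DMSO without replicate 3 at 24 h (-0.42, edgeR, adjusted p = 0.0649), and in cisplatin without replicate 2 at 24 h (-0.28, adjusted p = 0.239) or replicates 1 or 2 at 72 h (-0.43 and -0.31). PGD was lost without DMSO replicate 2 at 72 h (-0.42, edgeR, adjusted p = 0.0501), and TKT without any 1 cisplatin library other than replicate 1 at 24 h. The TKT change was -0.25 without replicate 2 at 24 h (edgeR, adjusted p = 0.209) and -0.34 to -0.38 in the other 4 fits, close to that with all libraries.

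**Figure D4:**
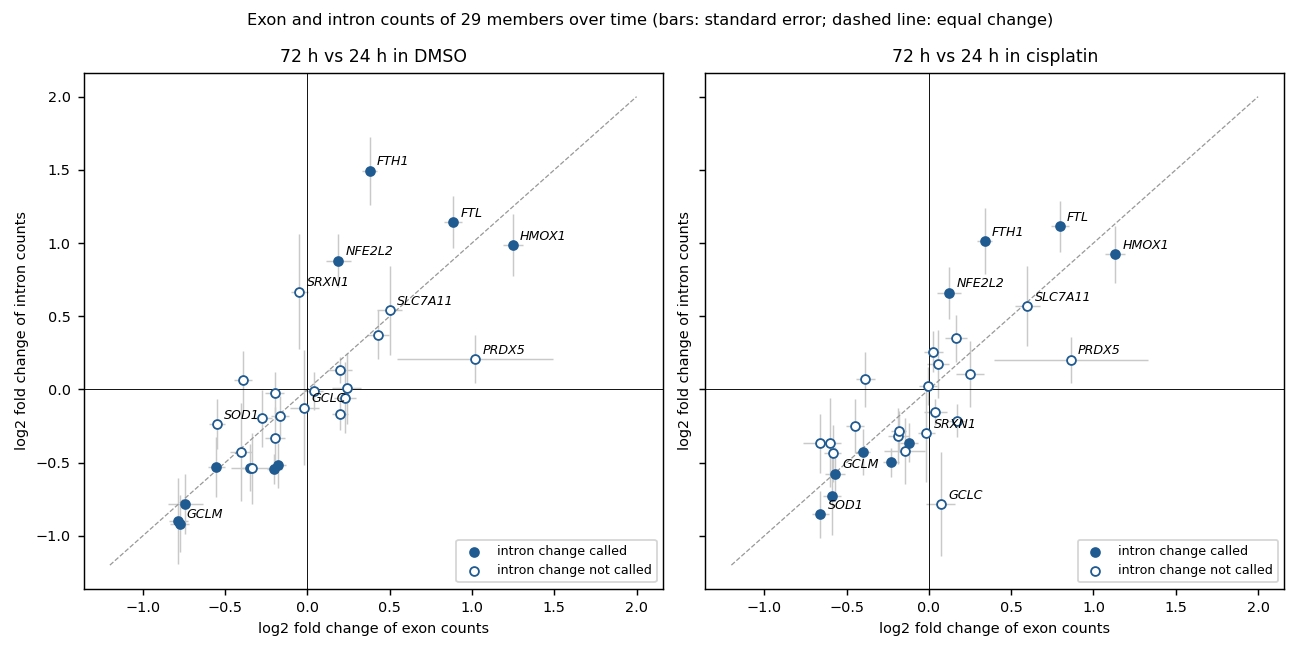
Log2 change of intron counts against that of exon counts from 24 to 72 h for the 29 genes, in DMSO and in cisplatin, with standard errors. FTH1 and NFE2L2 lie above the line of equal change in DMSO (1.49 against 0.38, and 0.88 against 0.19), HMOX1 lies near it, and GCLC and SRXN1, with few intron counts, have the widest intron errors.

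With cisplatin against DMSO, edgeR called 0 of 29 intron changes at 24 h (0.0208% of all genes) and 0 at 72 h (0.0416% of all genes), with 2 genes at an unadjusted p under 0.05 at each time, and 481 and 622 over all genes. DESeq2 also called 0 of the 29 at both times. At 24 h the smallest p belonged to SOD1, SRXN1 and HMOX1, all higher with cisplatin. SOD1 intron CPM at 24 h were 43.8, 50.3 and 50.2 in DMSO and 66.8, 67.5 and 61.0 in cisplatin, apart from each other, with a change of 0.45 (SE 0.17; edgeR, adjusted p = 0.942). SRXN1 intron CPM at 24 h were 8.45, 9.14 and 2.12 in DMSO and 11.98, 15.5 and 12.4 in cisplatin, with a change of 0.97 (SE 0.39; edgeR, adjusted p = 0.942) from 3 to 70 counts per library over the 12 libraries. HMOX1 introns changed by 0.41 (SE 0.23; edgeR, adjusted p = 0.942).

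At 72 h the smallest p belonged to PGD, NFE2L2 and HMOX1. PGD intron CPM at 72 h were 51.0, 43.5 and 57.5 in DMSO and 69.0, 71.2 and 72.4 in cisplatin, with the cisplatin libraries above the DMSO libraries, and the change was 0.47 (SE 0.14; edgeR, adjusted p = 0.567). NFE2L2 intron CPM at 72 h were 58.6, 71.5 and 55.1 in DMSO and 48.1, 49.1 and 50.1 in cisplatin, with the cisplatin libraries below, and the change was -0.32 (SE 0.16; edgeR, adjusted p = 0.769). HMOX1 introns were higher with cisplatin in all 3 libraries, by 0.35 (SE 0.18; edgeR, adjusted p = 0.789).

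The exon/intron ratio, exon counts divided by intron counts of the same gene and library, was the study's measure of splicing. By an edgeR test that includes the spread between libraries, cisplatin changed the ratio of 0 of the 29 genes at 24 h (0% of 9380 genes; 3 of the 29 and 594 of all genes at an unadjusted p under 0.05) and of 0 at 72 h (0.0213%; 1 of the 29 and 585 of all genes). Over time in DMSO, the ratio rose for GSS and PRDX6 and fell for FTH1 and NFE2L2, against 8.09% of all genes higher and 3.37% lower. In cisplatin it rose for GSS and PRDX6, against 8.36% higher and 3.56% lower.

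FTH1 ratios were 319.9, 324 and 482 in DMSO and 391, 281 and 278 in cisplatin at 24 h, and 133, 206 and 188 in DMSO and 213, 224 and 173 in cisplatin at 72 h. The DMSO libraries at 72 h lay below those at 24 h, and the FTH1 ratio fell by 1.04 (SE 0.21) on the log2 scale (edgeR, adjusted p = 0.00134). NFE2L2 ratios were 15.7, 12.4 and 13.4 in DMSO and 12.5, 12.1 and 21.3 in cisplatin at 24 h, and 10.1, 7.65 and 9.35 in DMSO and 11.6, 9.99 and 9.04 in cisplatin at 72 h. In DMSO the times did not overlap, and the ratio fell by 0.62 (SE 0.20) on the log2 scale (edgeR, adjusted p = 0.0403), a call that held in only 1 of 6 fits that left out a library. Without DMSO replicate 1 at 24 h, for instance, it was not called, and the change ran from -0.71 to -0.51 over these fits. NFE2L2 cisplatin replicate 3 at 24 h stood apart from the other two.

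GSS ratios were 9.28, 10.2 and 9.84 in DMSO and 8.94, 10.4 and 9.68 in cisplatin at 24 h, and 11.6, 14.1 and 14.3 in DMSO and 13.01, 12.6 and 14.3 in cisplatin at 72 h. The 72 h libraries were above the 24 h libraries under both treatments, and the GSS ratio rose by 0.44 (SE 0.13) in DMSO and by 0.45 (SE 0.12) in cisplatin on the log2 scale (edgeR, adjusted p = 0.0224 and 0.0158). It was not called without DMSO replicate 1 at 24 h or replicates 2 or 3 at 72 h, or, in cisplatin, without replicate 1 at 24 h or replicate 3 at 72 h (changes of 0.38 to 0.54 and 0.40 to 0.51 over the fits). PRDX6 ratios were 25.1, 23.8 and 21.5 in DMSO and 23.4, 22.1 and 22.6 in cisplatin at 24 h, and 30.9, 34.5 and 29.01 in DMSO and 29.1, 30.2 and 26.4 in cisplatin at 72 h, again without overlap between the times. The PRDX6 ratio rose by 0.42 (SE 0.11) in DMSO and by 0.33 (SE 0.11) in cisplatin on the log2 scale (edgeR, adjusted p = 0.0147 and 0.0443). In cisplatin the PRDX6 call held in 1 of 6 fits without a library, with changes of 0.29 to 0.39. It was also lost with a minimum of 1 count and in the fit of only the 6 libraries compared, although the change stayed at 0.33. In both of these fits FTH1 and GCLC were called in its place (adjusted p = 0.0513 for each in the fit of all libraries, edgeR). In DMSO it was lost without replicate 3 at 24 h or replicate 2 at 72 h (0.35 to 0.48).

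The logistic regression of the study treats each fragment as an independent draw. Its effect is given as the splicing score, the log2 ratio of summed exon/intron ratios, below 0 where the treated ratio is lower. With cisplatin at 24 h it called 7 of the 29 genes, all with scores below 0, against 11.5% of 9678 genes. At 72 h it called 2, both below 0, against 11.4% of 10011 genes. Scores below 0 were also the rule over all genes, with 93.2% of the called genes at 24 h and 84.9% at 72 h. The 3 smallest p at 24 h were those of SOD1 (score -0.44, adjusted p = 0.000782 by the Wald test of the logistic regression), TKT (-0.28, adjusted p = 0.0021) and SRXN1 (-1.63, adjusted p = 0.00494). NQO1, PGD, KEAP1 and GSTK1 followed, with scores of -0.27, -0.31, -0.29 and -0.13. At 72 h PGD had a score of -0.58 and KEAP1 one of -0.32 (adjusted p = 1.39e-05 and 0.0219, Wald test).

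SOD1 ratios at 24 h were 75.8, 72.7 and 62.5 in DMSO and 49.4, 46.0 and 60.0 in cisplatin, with no overlap. TKT ratios were 36.7, 48.9 and 26.7 in DMSO and 34.5, 26.8 and 31.2 in cisplatin, overlapping. SRXN1 ratios were 453, 436 and 1748 in DMSO and 305, 215 and 331 in cisplatin, with no overlap. The highest SRXN1 value, in DMSO replicate 3, rested on 3 intron counts. PGD ratios were 65.9, 64.7 and 63.1 in DMSO and 52.2, 52.4 and 51.7 in cisplatin at 24 h, and 90.4, 97.6 and 75.1 in DMSO and 61.5, 59.4 and 55.5 in cisplatin at 72 h, with the cisplatin libraries below the DMSO libraries at both times. KEAP1 ratios were 44.8, 45.8 and 31.6 in DMSO and 26.3, 28.9 and 44.6 in cisplatin at 24 h, and 48.2, 44.3 and 47.6 in DMSO and 44.7, 29.2 and 38.4 in cisplatin at 72 h, with overlap at 24 and at 72 h. Without cisplatin replicate 2 at 24 h, 0 of the 7 genes were called, and 245 of all genes in place of 1110. Without DMSO replicate 2 at 24 h, 2 were called, and 503 of all genes, and without DMSO replicate 1, 4. At 72 h KEAP1 was not called without cisplatin replicate 2 or without DMSO replicates 1 or 3, and its score was -0.17 without cisplatin replicate 2. At 24 h the score of SRXN1 was -0.65 without DMSO replicate 3, that of TKT -0.039 without DMSO replicate 2, that of KEAP1 -0.15 without cisplatin replicate 1, and those of NQO1 and GSTK1 -0.12 and -0.056 without cisplatin replicate 2. The scores of SOD1 (-0.56 to -0.36) and PGD (-0.33 to -0.29) moved less when 1 library was left out, and PGD was also lost without DMSO replicates 1 or 2. In the quasi-binomial model, which lets each gene have its own spread between libraries, 0 of the 29 genes were called at 24 h and 0 at 72 h. Its calls over all genes are given in the last paragraph.

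Over time the same regression called 6 genes in DMSO, 3 with scores above 0 and 3 below, against 22.5% and 11.1% of 9739 genes. In cisplatin it called 11, with 8 above 0 and 3 below, against 28.9% and 11.7% of 9818 genes. Called under both treatments were PRDX6 (0.42 in DMSO and 0.33 in cisplatin), GSS (0.44 and 0.46), FTH1 (-1.10 and -0.64) and NFE2L2 (-0.62 and -0.58). PGD (0.44) and NQO1 (-0.42) were called in DMSO, and GCLC (0.91), GSTK1, TKT, SOD1, TXN, HMOX1 and CAT (-0.39) in cisplatin. In cisplatin, calls were lost without 1 library for TKT (cisplatin replicate 2 at 24 h), NFE2L2 (replicate 3 at 24 h), SOD1 (replicate 2 at 24 or 72 h), TXN (replicates 1 or 2 at 24 h or replicate 2 at 72 h), HMOX1 (replicates 2 or 3 at 24 h or replicate 2 at 72 h) and CAT (replicate 1 at 24 h or replicates 2 or 3 at 72 h). The score was 0.14 for HMOX1 (0.30 with all libraries) and 0.073 for TXN (0.30) without cisplatin replicate 2 at 72 h, 0.17 for SOD1 (0.25) and 0.19 for TKT (0.28) without cisplatin replicate 2 at 24 h, and -0.27 for NFE2L2 without cisplatin replicate 3 at 24 h. GSTK1 was called in all 6 fits, with scores of 0.18 to 0.32. In DMSO, NQO1 was lost without DMSO replicates 1 or 2 at 24 h, with scores of -0.61 to -0.30 over the fits. With the quasi-binomial model, 0 of the 29 genes were called under either treatment, and its calls over all genes are again in the last paragraph.

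**Figure D5:**
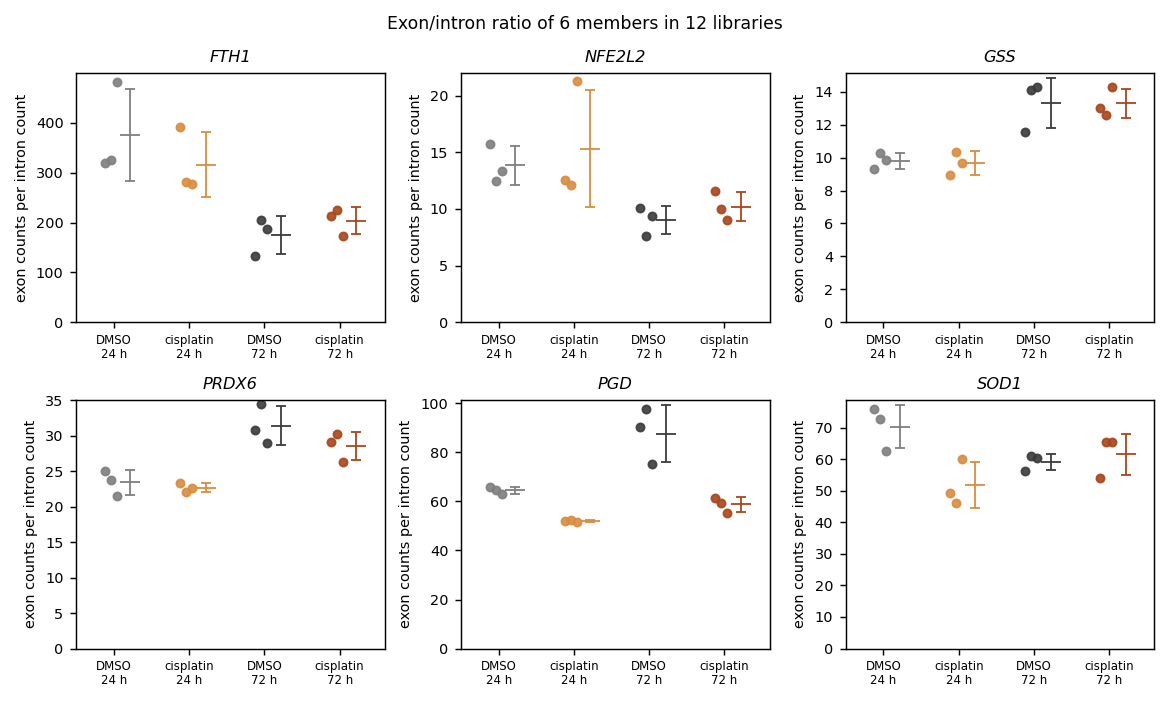
Exon counts per intron count of 6 genes in each of the 12 libraries, on axes that start at 0, with the mean and SD (n = 3) beside the points. FTH1 ratios are lower at 72 h and those of GSS and PRDX6 higher, and the PGD ratio is lower with cisplatin than with DMSO at both times (mean 52.1 against 64.6 at 24 h and 58.8 against 87.7 at 72 h).

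Summed over the 31 genes, introns made up 2.48% ± 0.20 of the counts (SD, n = 3) with cisplatin and 2.35% ± 0.19 with DMSO at 24 h, 0.133 percentage points apart. At 72 h the shares were 2.00% ± 0.061 and 1.91% ± 0.025, 0.0817 points apart. From 24 to 72 h the mean share fell by 0.437 points in DMSO and by 0.489 points in cisplatin. These shares are a description of the summed counts. With 3 libraries in each group, an exact permutation test cannot give a p under 0.1, so it cannot decide on them. FTL, GSTP1 and FTH1 held the most counts. Without them the differences were 0.230 and 0.139 points for cisplatin at 24 and 72 h, and the mean share fell by 0.195 points in DMSO and by 0.286 points in cisplatin over time.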

How the data were processed

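Poly(A) RNA of the 12 libraries was sequenced as paired 100-base reads from a directional kit. Per the labels and the study's methods, the authors checked reads with FastQC 0.11.8, trimmed them with Trim Galore 0.6.0, aligned them to GRCh38 with HISAT2 2.1.0 and counted fragments with HTSeq on Ensembl 98, over exons in intersection-strict mode and over introns in union mode. The strand setting is not given in the sources used here. The deposited values are raw counts per gene, so depth sets the precision of each value, and intron counts, being few, carry the larger error. Of 17508 genes, 423 had no exon entry and 913 no intron entry.

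Groups came from the labels. Exon counts and intron counts were each tested with edgeR 4.0.16 (quasi-likelihood, TMM, filterByExpr, all 12 libraries in 1 fit) in R 4.3.3. Their ratio was tested by edgeR's quasi-likelihood fit of all 12 libraries with a term for each library. That fit used neither TMM nor filterByExpr, and took the exon plus intron total as library size. A shift of the exon/intron balance over a whole library was therefore not scaled out of the ratio. All edgeR p-values were adjusted by Benjamini-Hochberg over all genes tested. Ratio tests were limited to genes that reached 10 counts in exons and in introns in 3 libraries or more. The study's binomial logistic regression was fitted to the 6 libraries of each comparison. Scripts were tested on simulated data. Alternatives were DESeq2 1.42.0, scaling by total counts, no filter, only the 6 libraries compared, a replicate block, a quasi-binomial model, a likelihood ratio test and leaving out each library.

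The members and gene lists were chosen with earlier results of these data known. Values per library are given for called members (up to 10 in each direction over time), for the 3 smallest p in each cisplatin comparison, and for fixed genes (NFE2L2, KEAP1, GCLC, GCLM, SLC7A11, NQO1, HMOX1, GSTP1 and ABCC1, with TXNRD1 also on that list but not analysed here). Of the other pathway genes, at most 2 in each direction per role were named. Overlaps with other genes and pseudogenes were taken from GENCODE 44, and promoters from RefSeq.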

Additional observations from a re-analysis of the deposited data

How the results depend on the processing

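No called change of a gene in the module turned its direction under the alternatives run, but the median exon change of the 29 genes did over time in cisplatin and for cisplatin at 72 h, as given above. Leaving out 1 library gave 21 to 25 exon calls over time in DMSO and 17 to 20 in cisplatin, and 9 to 12 and 7 to 12 intron calls. Of the called exon and intron changes, those of TXN, OSGIN1, PRDX3 and TALDO1 moved by over 1.5 times without 1 library, as given above. The ratio and the logistic regression were less stable. Leaving out 1 library gave 1 to 4 edgeR ratio calls over time in DMSO (4 with all libraries) and 0 to 2 in cisplatin (2 with all). For the logistic regression it gave 0 to 7 calls for cisplatin at 24 h (7 with all), 1 to 3 at 72 h (2 with all) and 6 to 11 over time in DMSO (6 with all, 11 without DMSO replicate 3 at 72 h). The quasi-binomial model gave 0 calls in the module in all 4 comparisons. With a replicate block, the edgeR ratio gave 1 call over time in cisplatin, that of PRDX6 being lost, and exon counts gave 26 calls over time in DMSO in place of 25, and the logistic regression gave 8 in place of 6 in DMSO and 12 in place of 11 in cisplatin. For cisplatin at 72 h the block left 2 logistic calls, but KEAP1 was no longer among them (log2 odds ratio -0.36). The exon and intron counts of calls in the module did not change otherwise under the block. Deviations of libraries with the same number correlated between -0.20 and 0.13, so the numbers were not taken to pair them.

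Over all genes, the exon count for cisplatin at 72 h was 85 with DESeq2 and 154 with no filter, in place of 3 (0 to 72 without 1 library), and at 24 h 7 with no filter in place of 0. For introns, no filter gave 5 in place of 2 at 24 h and 19 in place of 4 at 72 h, DESeq2 and the replicate block gave 0 at 24 h, and a fit of 6 libraries gave 26 at 72 h. The block gave 0 in place of 4 for the intron interaction. A minimum of 1 count gave 4 ratio calls at 72 h in place of 2. In the module, this minimum and the fit of 6 libraries each gave 3 ratio calls over time in cisplatin in place of 2, with FTH1 and GCLC gained and PRDX6 lost. The quasi-binomial model called 0, 0, 64 and 97 genes where the logistic regression called 1110, 1144, 3278 and 3984. Causes were not tested. Intron counts of 3 to 1798 per library limit the precision of the ratios.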
